A study of Homo sapiens with 10 samples.

Results

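The AP-1 family measured here comprised 9 genes: FOS, FOSB, FOSL1, FOSL2, JUN, JUNB, JUND, BATF3 and JDP2. They were taken by gene symbol, as a family chosen with earlier results of these data known. All 9 were found among the 28380 genes of the count table and among the 13378 genes with enough counts for a test. RPE-1 is an established line of telomerase-immortalized human retinal pigment epithelial cells, and it stands here for the tissue as 1 line grown in culture. The cells received either 25 µM sulforaphane (SFN), an isothiocyanate from broccoli, or its vehicle DMSO for 4 h, with 5 replicates in each group. RNA was sequenced from the 3′ ends of transcripts (Lexogen QuantSeq), so the counts report the abundance of polyadenylated RNA and neither AP-1 protein nor its binding to DNA.

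AP-1 is a group of dimeric transcription factors whose subunits share a basic region, which contacts DNA, and a leucine zipper, which holds the dimer together. FOS proteins do not form stable homodimers and pair with JUN proteins, whereas JUN proteins can also pair with each other. BATF3 and JDP2 have a basic region and a leucine zipper but lack the activation domains of FOS and JUN, and both can oppose them. FOS, FOSB, JUN and JUNB are classical immediate early genes, induced within minutes by growth factors and stress without new protein synthesis, and their mRNAs are short-lived. AP-1 binds the TPA response element and the closely related cAMP response element.

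Values are given as counts, or as CPM, that is, counts made comparable between libraries by TMM scaling. The groups were tested with edgeR's quasi-likelihood model over all tested genes, p-values were adjusted by the Benjamini-Hochberg method, and a gene was called higher or lower in SFN at an adjusted p under 0.05. By this rule 9.07% of all tested genes were higher in SFN and 13.9% were lower, and with scaling to the library size alone the counts of calls moved from 1214 higher and 1862 lower to 819 higher and 2163 lower. The total count per library ranged from 15689294 to 20666692 in DMSO and from 12375860 to 17308706 in SFN. DMSO replicate 1 stood apart: its root mean square distance in log2 CPM from the mean of the other DMSO libraries was 0.927, against 0.287 to 0.382 for the other DMSO libraries, so results are also given without it. With this library left out, 22.5% of tested genes were called higher and 23.5% lower. Of the markers of retinal pigment epithelium, KRT8, KRT18, CDH2, MITF and OTX2 were detected, but RPE65 had 0 counts in every DMSO library and at most 3 in SFN, and RLBP1, TYRP1 and SERPINF1 had at most 4 counts in any library. Of 8 of these markers with enough counts for a test, MITF fell by 1.12 and OTX2 by 0.64 on the log2 scale in SFN and 0 were called higher. BEST1, a chloride channel gene, was at 18.8 ± 13.7 CPM (SD, n = 5) in DMSO and 42.4 ± 36.7 CPM (SD, n = 5) in SFN and did not pass the test (log2 fold change 1.17), but without DMSO replicate 1 BEST1 (log2 fold change 1.68, edgeR quasi-likelihood adjusted p = 0.0096) and KRT8 (0.37) were called higher, for 2 higher and 2 lower. The part of these markers in the results was not tested. Markers of blood, endothelial, muscle and neural cells summed to at most 2.86 CPM in any library.

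Of the 9 members, 2 were called higher in SFN, FOS and JDP2, and 0 were called lower, against 9.07% and 13.9% of all tested genes. The other 7 members did not pass the test, although at an unadjusted p under 0.05 JUN and JUNB were lower by edgeR, and DESeq2 called 0 members lower as well. The median log2 fold change of the members was -0.12, and that of all tested genes was -0.028. FOS and JDP2 were also the members with adjusted p under 0.05 and a log2 fold change above 1, a rule met by 2.94% of all tested genes. In bulk RNA, a change in the share of cells that express a gene and a change in its RNA per cell cannot be told apart.

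FOS and JDP2 are neighbors on chromosome 14, and JUN encodes their main partner. The promoters of these 3 genes are shown because FOS and JDP2 were called higher while JUN was not. Sequences are from RefSeq (GRCh38.p14), from 250 bases before to 50 bases after the transcription start, 5′ to 3′ on the strand of the gene, and capitals mark a match to 1 of the motifs searched. JUN lies on the minus strand (chr1:58783998-58784297), and FOS (chr14:75278578-75278877) and JDP2 (chr14:75427772-75428071, 1 of its 3 starts) on the plus strand.
JUN: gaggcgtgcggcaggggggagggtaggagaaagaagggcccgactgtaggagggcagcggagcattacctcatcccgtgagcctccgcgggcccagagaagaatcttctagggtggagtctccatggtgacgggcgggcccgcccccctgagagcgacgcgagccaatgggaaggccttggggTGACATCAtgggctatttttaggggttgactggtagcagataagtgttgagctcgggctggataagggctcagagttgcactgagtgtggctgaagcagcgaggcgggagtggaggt
FOS: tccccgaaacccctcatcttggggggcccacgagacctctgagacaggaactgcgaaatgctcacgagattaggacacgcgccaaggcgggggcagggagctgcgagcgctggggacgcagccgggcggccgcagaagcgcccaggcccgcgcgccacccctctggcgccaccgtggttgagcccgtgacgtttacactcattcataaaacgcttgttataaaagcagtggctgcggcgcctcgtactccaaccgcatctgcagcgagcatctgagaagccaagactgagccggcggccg
JDP2: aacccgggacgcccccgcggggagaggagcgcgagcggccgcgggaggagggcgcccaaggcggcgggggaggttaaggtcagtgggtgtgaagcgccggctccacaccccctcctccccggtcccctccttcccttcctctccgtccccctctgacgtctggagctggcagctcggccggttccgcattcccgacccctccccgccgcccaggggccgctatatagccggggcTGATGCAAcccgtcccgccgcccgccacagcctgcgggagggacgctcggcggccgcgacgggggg

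The 5 motifs were searched on both strands, and RefSeq windows were matched to 7 of the 9 members, all but BATF3 and FOSL1. The capitals in JUN are a match to the cAMP response element-like motif TGACNTCA, 67 bases before the start, which 7.72% of all 35116 promoter windows contain. JUND contained the same motif 200 bases before its start. The capitals in JDP2 match TGATGNAA, a motif for dimers of C/EBP and ATF proteins, 16 bases before the start, and 3.62% of all windows contain it. The windows at the other 2 starts of JDP2 contained no match to any of the motifs, and the start shown was chosen because it holds one. FOS contained no match to any of the motifs within its window. A near match such as tgacgttt in FOS, which differs from TGACNTCA, was not counted. The TPA response element TGANTCA was present in FOSL2 and in 7.71% of windows, the antioxidant response element core TGACNNNGC in JUND and in 13.3%, and the serum response element in no member and in 1.29%. TGANTCA, TGACNTCA and TGACNNNGC share their first letters, so single sites can match more than 1 of them, and a match describes only the letters in these windows. A missing match, as for the serum response element in FOS, does not show that the promoter lacks the site. Bases further upstream were not searched.

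FOS (chromosome 14, 75278826 to 75282230, plus strand, 4 exons) encodes the founding member of the FOS subfamily. Its counts were 9, 9, 7, 7 and 9 in DMSO replicates 1 to 5 and 29, 35, 28, 36 and 28 in SFN replicates 1 to 5. All SFN libraries lay above all DMSO libraries, a pattern found in 8.78% of all tested genes, but even the highest count was small. FOS rose from 0.463 ± 0.0775 CPM (SD, n = 5) to 2.25 ± 0.499 CPM (SD, n = 5), a fold change of 4.79 with a 95% confidence interval of 3.29 to 6.98. Its log2 fold change was 2.26 (SE, the standard error, 0.25, edgeR quasi-likelihood adjusted p = 6.3e-05). The log2 fold change was 2.33 without DMSO replicate 1 (SE 0.29).

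FOSB (chromosome 19, 45467995 to 45475179, plus strand, 4 exons) encodes a close relative of FOS and is often induced together with it. Its counts were 10, 14, 14, 16 and 9 in DMSO and 16, 2, 5, 6 and 13 in SFN. The groups overlapped, with SFN replicates 1 and 5 within the range of DMSO and the other SFN replicates below it. FOSB was at 0.708 ± 0.169 CPM (SD, n = 5) in DMSO and 0.564 ± 0.351 CPM (SD, n = 5) in SFN. Its log2 fold change of -0.28 did not pass the test (SE 0.41, edgeR quasi-likelihood adjusted p = 0.68). The 95% confidence interval ran from -1.18 to 0.61 on the log2 scale, so a change of the size seen in FOS lay outside it.

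FOSL1 (chromosome 11, 65892049 to 65900573, minus strand, 4 exons) and FOSL2 (chromosome 2, 28392448 to 28417317, plus strand, 4 exons) encode FRA1 and FRA2, FOS relatives that lack its strong activation domain and persist longer after a stimulus. FOSL1 was at 74.0, 203, 183, 187 and 179 CPM in DMSO and 213, 208, 213, 205 and 269 CPM in SFN. All SFN libraries lay above all DMSO libraries, with the smallest gap between SFN replicate 4 and DMSO replicate 2, and DMSO replicate 1 was far below the others. The mean was 165 ± 51.8 CPM (SD, n = 5) in DMSO and 222 ± 26.6 CPM (SD, n = 5) in SFN. This difference did not pass the test, with a log2 fold change of 0.42 (SE 0.23, edgeR quasi-likelihood adjusted p = 0.21). Without DMSO replicate 1 the log2 fold change was 0.23 (SE 0.091, edgeR quasi-likelihood adjusted p = 0.051).

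FOSL2 behaved much like FOSL1 in these libraries. It was at 52.1, 94.7, 115, 95.2 and 96.9 CPM in DMSO and 115, 110, 116, 111 and 131 CPM in SFN. The groups overlapped through DMSO replicate 3, and DMSO replicate 1 was again the lowest. FOSL2 was at 90.7 ± 23.1 CPM (SD, n = 5) in DMSO and 117 ± 8.43 CPM (SD, n = 5) in SFN, with a log2 fold change of 0.37 (SE 0.18, edgeR quasi-likelihood adjusted p = 0.16). Without DMSO replicate 1 the log2 fold change was 0.21 (SE 0.088, edgeR quasi-likelihood adjusted p = 0.061). Relative to the mean of the other DMSO libraries, DMSO replicate 1 lay lower by a log2 difference of -1.34 for FOSL1 and -0.94 for FOSL2, and its part in these comparisons beyond the values without it was not tested.

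**Figure D1:**
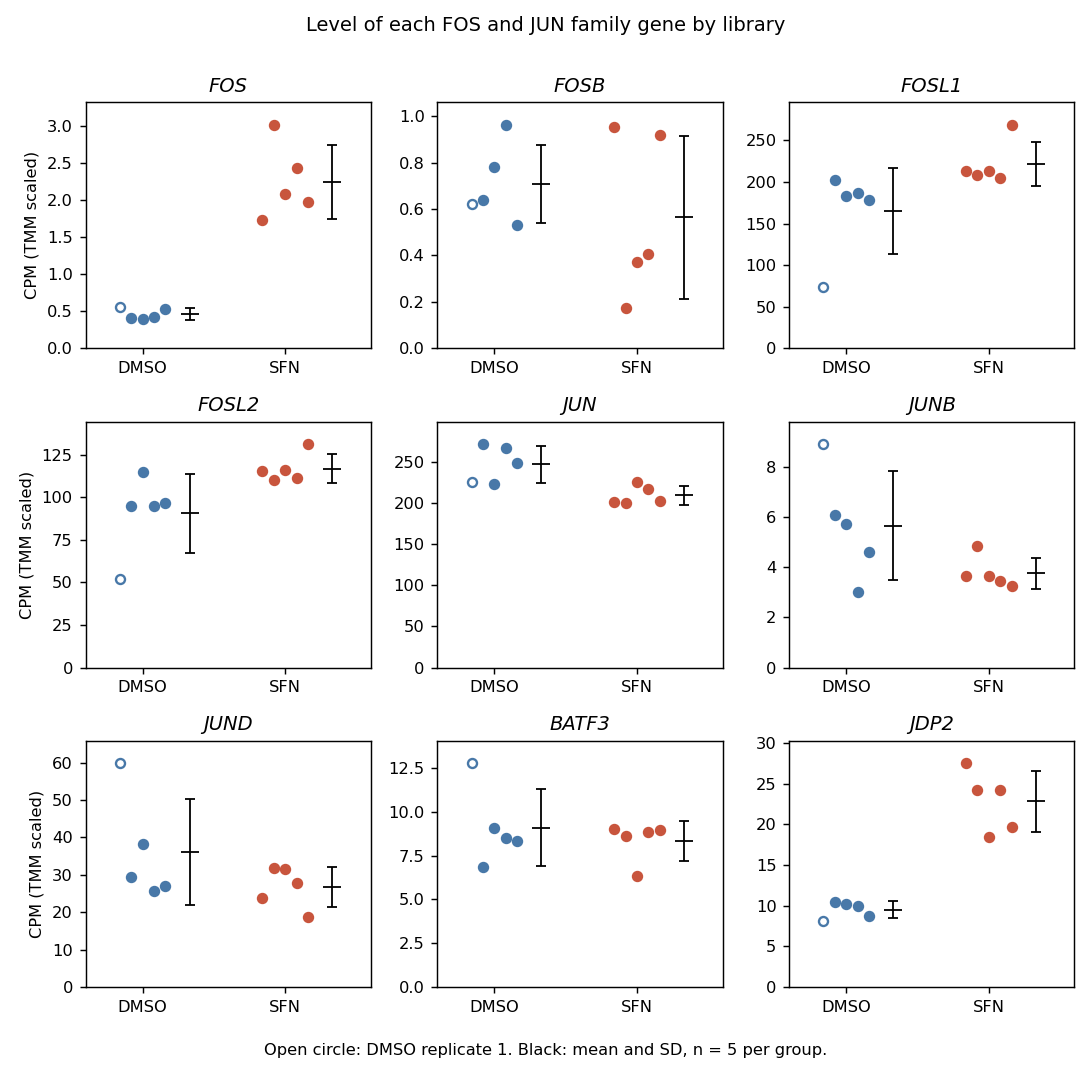
CPM of each of the 9 members in the 5 DMSO and 5 SFN libraries, 1 panel per gene on its own linear axis from 0, with a point for each library, an open circle for DMSO replicate 1 and black bars for the mean ± SD (n = 5). FOS (0.391 to 0.560 CPM in DMSO, 1.73 to 3.02 CPM in SFN) and JDP2 (8.10 to 10.5 CPM, 18.5 to 27.5 CPM) separate with the widest gaps, and DMSO replicate 1 is the low point of FOSL1 and FOSL2.

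JUN (chromosome 1, 58776845 to 58784048, minus strand, 1 exon) encodes the common partner of FOS proteins and the substrate after which the JUN N-terminal kinases were named. It was at 226, 271, 222, 266 and 249 CPM in DMSO and 201, 199, 226, 217 and 202 CPM in SFN. Only SFN replicate 3 reached into the range of DMSO. JUN was at 247 ± 22.5 CPM (SD, n = 5) in DMSO and 209 ± 11.9 CPM (SD, n = 5) in SFN, with a log2 fold change of -0.24 (SE 0.10, edgeR quasi-likelihood adjusted p = 0.11). The 95% confidence interval ran from -0.46 to -0.02 on the log2 scale, without adjustment for the number of genes tested. With DMSO replicate 1 left out, JUN fell by 0.28 on the log2 scale (SE 0.081) and was called lower (edgeR quasi-likelihood adjusted p = 0.013).

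JUNB (chromosome 19, 12791486 to 12793315, plus strand, 1 exon) encodes a JUN relative with weaker activation that can restrain JUN. Its counts were 143, 133, 102, 50 and 78 in DMSO and 61, 56, 49, 51 and 46 in SFN, which correspond to 5.66 ± 2.17 CPM (SD, n = 5) and 3.76 ± 0.620 CPM (SD, n = 5). In CPM, DMSO replicate 4 lay below all SFN libraries at 3.01 and DMSO replicate 1 was the highest, so the groups overlapped and the spread in DMSO was wide. The log2 fold change of -0.59 did not pass the test (SE 0.26, edgeR quasi-likelihood adjusted p = 0.12). It passed without DMSO replicate 4, where it was -0.75 (edgeR quasi-likelihood adjusted p = 0.034), and without DMSO replicate 1 it was -0.39 (edgeR quasi-likelihood adjusted p = 0.14).

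JUND (chromosome 19, 18279694 to 18281622, minus strand, 1 exon) encodes the JUN protein that is present in most resting cells. It was at 59.8, 29.5, 38.1, 25.5 and 27.1 CPM in DMSO and 23.9, 31.7, 31.4, 27.7 and 18.8 CPM in SFN. The groups overlapped, and DMSO replicate 1 was the highest of all libraries. JUND was at 36.0 ± 14.2 CPM (SD, n = 5) in DMSO and 26.7 ± 5.46 CPM (SD, n = 5) in SFN, with a log2 fold change of -0.43 (SE 0.24, edgeR quasi-likelihood adjusted p = 0.23). It was -0.18 when DMSO replicate 1 was left out. DMSO replicate 1 exceeded the mean of the other DMSO libraries by 0.91 for JUNB and 1.01 for JUND on the log2 scale, opposite to FOSL1 and FOSL2.

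JDP2 (chromosome 14, 75427716 to 75474111, plus strand, 4 exons) encodes JUN dimerization protein, which pairs with JUN and ATF proteins and represses transcription from their sites. Its counts were 130, 230, 183, 166 and 148 in DMSO and 461, 281, 248, 359 and 278 in SFN. Every SFN library lay above every DMSO library, in counts as in CPM. JDP2 rose from 9.51 ± 1.03 CPM (SD, n = 5) to 22.8 ± 3.70 CPM (SD, n = 5), a fold change of 2.40 with a 95% confidence interval of 1.94 to 2.96. The log2 fold change was 1.26 (SE 0.14, edgeR quasi-likelihood adjusted p = 6.4e-05) and 1.20 (SE 0.13) without DMSO replicate 1.

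BATF3 (chromosome 1, 212686417 to 212699840, minus strand, 3 exons) encodes a JUN partner best known from dendritic cells. It was at 12.8, 6.83, 9.06, 8.49 and 8.35 CPM in DMSO and 9.001, 8.63, 6.33, 8.84 and 8.97 CPM in SFN. The groups overlapped almost fully. The mean was 9.10 ± 2.21 CPM (SD, n = 5) in DMSO and 8.35 ± 1.14 CPM (SD, n = 5) in SFN, with a log2 fold change of -0.12 (SE 0.18, edgeR quasi-likelihood adjusted p = 0.69). The 95% confidence interval ran from -0.51 to 0.27 on the log2 scale, and the estimate changed sign to 0.029 without DMSO replicate 1.

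Of the members, FOS, FOSL1 and JDP2 had all SFN libraries above all DMSO libraries, against 8.78% of tested genes, and 0 had all SFN libraries below, against 11.1%. Leaving out DMSO replicate 1 changed the calls from 2 higher and 0 lower to 2 higher and 1 lower, the latter being JUN, beside the 22.5% and 23.5% of all genes called without that library.

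**Figure D2:**
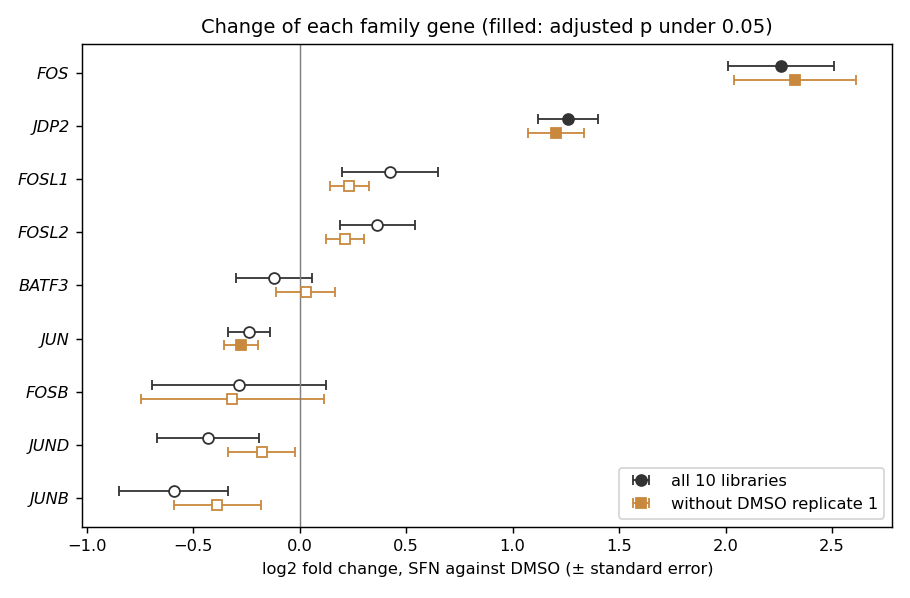
Log2 fold change of each member in SFN against DMSO, with bars of ± 1 standard error, from all 10 libraries (circles) and without DMSO replicate 1 (squares), where filled symbols mark an adjusted p under 0.05. FOS at 2.26 and JDP2 at 1.26 are filled in both, JUN is filled only without DMSO replicate 1 at -0.28, and the other 6 members are open in both.

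Ratios between members were compared within libraries, because they do not depend on how libraries are scaled. For 6 pairs, the log2 ratio of counts, with 0.5 added to each, was compared by an exact two-sided permutation test, in which 5 against 5 libraries allow no p below 0.0079. The ratio of FOS to JUN rose by 2.44 on the log2 scale, a 5.43-fold change, from a mean of -8.98 ± 0.30 (SD, n = 5) in DMSO to -6.54 ± 0.32 (SD, n = 5) in SFN (exact permutation p = 0.0079, 0.016 after Benjamini-Hochberg adjustment over the 6 pairs). Every SFN library exceeded every DMSO library in this ratio. The ratio of FOS to FOSB rose by 2.69, from -0.57 ± 0.49 to 2.12 ± 1.21 (SD, n = 5 each, exact permutation p = 0.0079, adjusted p = 0.016). FOSB had as few as 2 counts in an SFN library, and the ratio was spread widest there.

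The ratio of FOSL1 to JUN was -1.61, -0.42, -0.28, -0.51 and -0.48 in DMSO and 0.08, 0.06, -0.08, -0.08 and 0.41 in SFN on the log2 scale. All SFN libraries again lay above all DMSO libraries, with DMSO replicate 1 the lowest. The ratio rose by 0.74 on the log2 scale, a 1.67-fold change (exact permutation p = 0.0079, adjusted p = 0.016), and by 0.50 without DMSO replicate 1 (exact permutation test, adjusted p = 0.024). Neither FOSL1 nor JUN passed the test on its own, and the ratio combines their differences in opposite directions.

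The ratios of the other 3 pairs did not pass the test, and their groups overlapped. FOSL1 to FOSL2 moved from 0.83 ± 0.24 to 0.92 ± 0.066 on the log2 scale (SD, n = 5 each, exact permutation p = 0.45, adjusted p = 0.54). JUN to JUNB moved from 5.52 ± 0.66 to 5.79 ± 0.26 (SD, n = 5 each, exact permutation p = 0.405, adjusted p = 0.54) and JUN to JUND from 2.85 ± 0.61 to 2.99 ± 0.29 (SD, n = 5 each, exact permutation p = 0.70, adjusted p = 0.70). These ratios are of counts and were used to compare the same pair between groups. How well they reflect the relative levels of 2 genes was not tested.

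Several members lie over or beside other genes, and whether reads were counted by strand was not given in the sources used here. Reads of overlapping genes therefore cannot be told apart by strand. FOSB lies within ERCC1, a DNA repair gene on the opposite strand, which was at 51.3 CPM in DMSO and 65.2 CPM in SFN (log2 fold change 0.35, edgeR quasi-likelihood adjusted p = 0.34). JUNB lies within HOOK2, on the opposite strand, which was at 16.4 CPM in DMSO and 10.7 CPM in SFN (log2 fold change -0.61, edgeR quasi-likelihood adjusted p = 0.075). The difference in JUNB and that in HOOK2 pointed the same way, and the part of HOOK2 reads in the JUNB count was not tested. CCDC85B, 414 bp from FOSL1 on the opposite strand, was at 98.5 CPM in DMSO and 60.7 CPM in SFN. Its log2 fold change of -0.70 did not pass the test (SE 0.45, edgeR quasi-likelihood adjusted p = 0.31). Its counts in DMSO were widely spread, from 723 to 4192, so its direction relative to FOSL1 was not settled. Its value without DMSO replicate 1 is not given here. FIBP, PRDX2 and the lncRNA ENSG00000267062 also lie within 5 kb of a member. Of these, ENSG00000267062, 3508 bp from JUNB on the same strand, was called higher, from 0.767 to 3.83 CPM. Its log2 fold change was 2.30 (SE 0.67, edgeR quasi-likelihood adjusted p = 0.027), on widely spread counts of 5 to 21 in DMSO and 22 to 138 in SFN. The antisense RNA FOSL2-AS1 had 0 to 4 counts in DMSO and 5 to 15 in SFN, and JDP2-AS1 had 0 to 3 and 2 to 9, both too few for a test.

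On chromosome 14, the end of FOS lies 145486 bp from the start of JDP2, and JDP2 ends 48344 bp before BATF, which encodes another inhibitor of AP-1. BATF was listed at 0 counts in DMSO and 0.0141 CPM in SFN, so of the 3 AP-1 genes at this locus, FOS and JDP2 were measured and both rose. No other tested gene lay between FOS and JDP2. Whether their positions have a part in their changes was not tested.

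FOS and JUN proteins also pair with some proteins of the ATF, CREB, MAF and CNC families. Of 18 bZIP genes listed as partners, 12 had enough counts for a test. Whether each listed protein, such as those of CREB1 and CREM, pairs with FOS or JUN proteins was not checked. Of the 12, 9 (75%) were called higher in SFN and 0 were called lower, against 9.07% and 13.9% of all tested genes. Their median log2 fold change was 0.74. This and the other gene lists were drawn up with earlier results of these data known, so these shares are not independent of them. ATF3 and MAFF are also counted among the immediate early genes below, and ATF2 and CREB1 among the factors at the FOS and JUN promoters. ATF3, a stress-induced bZIP protein, rose from 0.997 ± 0.325 to 8.32 ± 0.641 CPM (SD, n = 5 each) with a log2 fold change of 3.04 (SE 0.21). DDIT3, which encodes the stress factor CHOP, rose from 7.57 ± 1.67 to 35.1 ± 7.80 CPM (SD, n = 5 each) with a log2 fold change of 2.21 (SE 0.19). At an unadjusted p under 0.05, 2 partners were lower by edgeR, and DESeq2 called 0 lower. The other genes called higher were ATF2, ATF4, CREM, NFE2L2, MAFF, MAFG and MAFK. Without DMSO replicate 1 the list had 9 higher and 2 lower, against 22.5% and 23.5% of all genes.

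Of 30 immediate early genes outside the family, 24 were tested, 9 were called higher (37.5%) and 5 lower (20.8%), against 9.07% and 13.9% of all tested genes, and the median log2 fold change was 0.16. EGR1, a zinc finger factor induced through the same pathways as FOS, rose from 2.63 ± 0.417 to 47.4 ± 6.65 CPM (SD, n = 5 each), a log2 fold change of 4.17 (SE 0.16, edgeR quasi-likelihood adjusted p = 2.4e-08). The other genes called higher were IER2, DUSP5, ZFP36, CCN1, MCL1, CSRNP1 and MAFF together with ATF3. RHOB, a small GTPase, fell by 2.12 on the log2 scale (SE 0.15), from 122 ± 21.1 to 28.1 ± 4.23 CPM. KLF2, a Krüppel-like transcription factor, fell by 0.96 on the log2 scale (SE 0.26), and BTG2, IER5 and SGK1 were also lower. Immediate early genes thus moved in both directions. Without DMSO replicate 1 they had 13 higher and 5 lower, against 22.5% and 23.5% of all genes, and without SFN replicate 1 3 lower.

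The transcription factors that bind the FOS and JUN promoters include the serum response factor, its ternary complex partners, its MRTF coactivators and the ATF2 and MEF2 factors that act at JUN. Sites for these factors outside the promoter windows above were not searched. Of 14 such genes, all 14 were tested, and 3 were called higher (21.4%) and 2 lower (14.3%), the latter close to the 13.9% of all tested genes. ATF2 rose from 53.5 ± 10.7 to 91.9 ± 19.0 CPM (SD, n = 5 each, log2 fold change 0.78) and MEF2D from 21.1 ± 3.01 to 29.2 ± 5.69 CPM (SD, n = 5 each, log2 fold change 0.47). MEF2D kept its call in only 8 of 19 alternatives, and lost it without any 1 of DMSO replicates 2, 4 and 5 and SFN replicates 1, 3, 4 and 5. ELK3, a ternary complex factor, was the other gene called higher. MRTFB fell by 1.58 on the log2 scale, from 29.8 ± 8.66 to 9.97 ± 2.44 CPM (SD, n = 5 each, edgeR quasi-likelihood adjusted p = 0.0007), and MRTFA fell by 0.97 on the log2 scale, from 18.6 ± 4.34 to 9.51 ± 1.64 CPM (SD, n = 5 each).

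Upstream of AP-1, the JNK, ERK and p38 kinase modules phosphorylate FOS and JUN proteins and the factors at their promoters. Of 30 genes of these modules, 28 were tested, 3 were called higher (10.7%) and 1 lower (3.57%), near and below the 9.07% and 13.9% of all tested genes, with a median log2 fold change of 0.03. MAP2K4, a kinase upstream of JNK, was at 25.4 CPM in DMSO and 34.2 CPM in SFN (log2 fold change 0.43), and MAP2K5, upstream of ERK5, at 7.71 and 10.04 CPM (log2 fold change 0.38). MAPK7, which encodes ERK5 itself, fell by 0.90 on the log2 scale, from 13.01 to 6.99 CPM. These calls were unstable: of 19 alternatives, MAP2K4 kept its call in 12, MAP2K5 in 8 and MAPK7 in 15. Over all alternatives the modules had 0 to 5 genes higher and 0 to 7 lower. The modules had 3 and 7 without DMSO replicate 1, against 22.5% and 23.5% of all genes, and 0 and 1 without DMSO replicate 2. They had 1 higher without any 1 of DMSO replicates 3, 4 and 5 and SFN replicates 1 and 3, 0 lower without DMSO replicate 3 or SFN replicate 3, and 2 lower without DMSO replicate 5. Of 16 genes of AP-1 protein turnover, 15 were tested, and 1 was higher and 1 lower (6.67% each), below the shares of all genes. Without DMSO replicate 1, 5 were higher and 2 lower, against 22.5% and 23.5% of all genes. Without DMSO replicate 3 or any 1 of SFN replicates 1 to 4, 0 were lower. NDFIP1, an adaptor of the ubiquitin ligases that act on JUN, was at 137 CPM in DMSO and 180 CPM in SFN (log2 fold change 0.39). FBXW7, which recognizes phosphorylated JUN for degradation, fell by 0.68 on the log2 scale, and by 0.43 without DMSO replicate 1. Of 19 alternatives, FBXW7 kept its call in 12 and NDFIP1 in 15.

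Of 30 textbook target genes of AP-1, 24 were tested, 7 were called higher (29.2%) and 3 lower (12.5%), against 9.07% and 13.9% of all tested genes, with a median log2 fold change of 0.14. HMOX1, which encodes heme oxygenase and is also a target of NRF2, rose from 19.9 ± 3.01 to 53.1 ± 3.13 CPM (SD, n = 5 each, log2 fold change 1.42). PLAUR, the urokinase receptor, rose from 179 ± 36.3 to 277 ± 19.7 CPM (SD, n = 5 each, log2 fold change 0.64). MMP1, HBEGF, TGFB1 and PTGS2 were among the others called higher. The cytokine gene IL11 fell by 0.62 on the log2 scale and LIF by 0.54, and EZR was lower as well. LIF kept its call in 10 of 19 alternatives, and lost it without any 1 of DMSO replicates 2 to 5 or SFN replicates 1 to 4. The targets numbered 10 higher and 5 lower without DMSO replicate 1, against 22.5% and 23.5% of all genes. They numbered 4 to 7 higher and 1 to 2 lower when any other 1 library was left out.

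**Figure D3:**
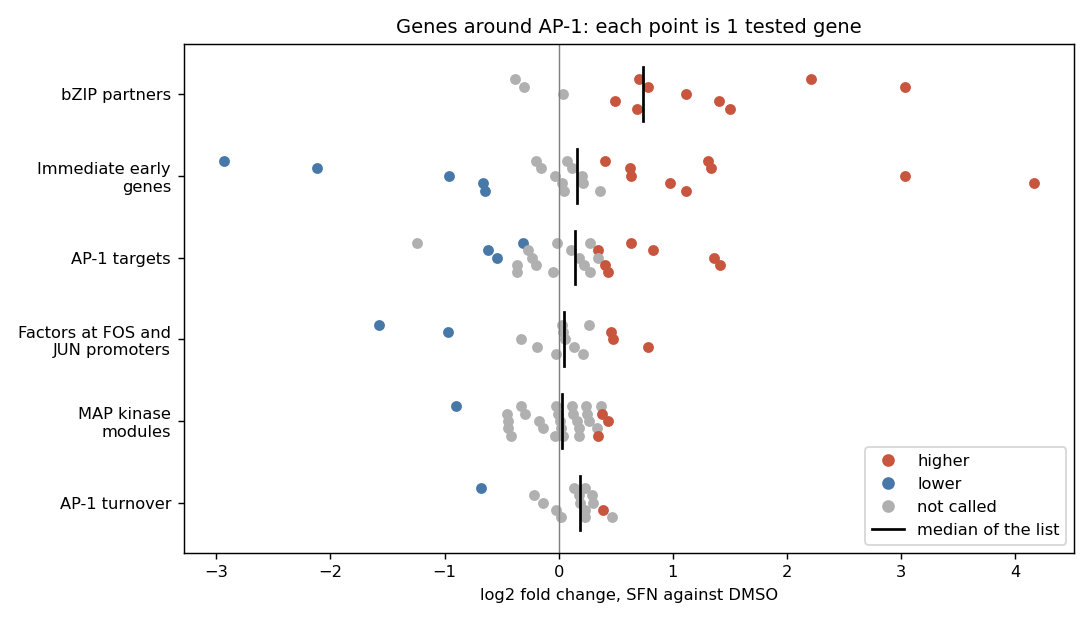
Log2 fold change in SFN against DMSO of each tested gene in the lists of partners, immediate early genes, targets, promoter factors, kinases and turnover factors, with red points for genes called higher, blue for lower and gray for not called, and a black line at the median of each list. The partners have 9 of 12 tested genes called higher and a median of 0.74, and the medians of the other lists lie between 0.03 and 0.19.

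The genes whose pattern over the 10 libraries was nearest to that of FOS were DNAJB9, JMJD6 and SLC3A2. Likeness was the root mean square difference of log2 CPM relative to the mean of DMSO, among 10321 genes with a mean of at least 5 CPM in 1 group, and a prior count of 2 damps the change of a gene with as few counts as FOS. The difference was 0.24 for DNAJB9, a chaperone of the endoplasmic reticulum with a log2 fold change of 1.91 in SFN. It was 0.25 for JMJD6, a hydroxylase of the nucleus with a log2 fold change of 1.85, and 0.26 for SLC3A2, an amino acid transporter subunit with a log2 fold change of 2.17. JUN was not called, so no genes are named for it.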

How the data were processed

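RPE-1 cells had 4 h of 25 µM SFN or of DMSO, 5 replicates each. The authors deposited unnormalized whole-number counts per gene. Per the labels, the submitters' processing notes name FastQC, STAR, featureCounts, edgeR and the genome build hg38, while the versions, the annotation release, the use of strand and of molecular identifiers are not given in the sources used here. The methods describe each replicate as its own lot of treated cells and call the replicates of the study independent, without saying whether they came from different days or passages, and p-values measure the spread between these samples. Every 2 replicates of a group differed by more than sampling noise (chi-square per degree of freedom 3.50 to 243), so each was kept as 1 sample.

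Genes were filtered with filterByExpr and tested with glmQLFit and glmQLFTest in edgeR 4.0.16 (R 4.3.3, limma 3.58.1, DESeq2 1.42.0) after TMM scaling, with Benjamini-Hochberg adjustment over 13378 genes. Standard errors were derived from the F statistic and the log2 fold change. The study's model for repeated measures, which its text does not define, was not run. Its nearest alternative here was limma-voom with quantile normalization. Pairs of members were compared with exact permutation tests. Positions are from GENCODE 44 (GRCh38). The scripts were tested on simulated data.

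The members and the gene lists were chosen with earlier results of these data known, so they are not independent of them. Genes named besides the members are the 2 largest increases and the 2 largest decreases called in each list with a mean of at least 5 CPM in 1 group, the 3 genes nearest to FOS and to JUN where these were called, and genes within 5 kb of a member. Some other genes called in a list are named without values, and 1 target gene is not reported here. The alternatives covered other scalings, DESeq2 and limma-voom, other low-count filters, a fold limit, another count added in ratios, a replicate block and leaving out each replicate. No protein sequences are shown.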

Additional observations from a re-analysis of the deposited data

Results flagged for a closer look

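In 30 groups of 5 libraries, made of the 9 members' CPM and the 6 ratios between members in each treatment, the gap between the most extreme library and the next was compared with the group's whole range, and a share above 0.71 was taken as a library far from the others. For a single group, chance alone gives such a share about 1 time in 20, and 7 groups were found. The ratios reuse the counts of the members, so the groups are not independent and 1 library can be found more than once. The 7 therefore cannot be set against that rate. DMSO replicate 1 was far below the other DMSO libraries for FOSL1 at 74.0 CPM (share 0.812) and for the log2 ratio of FOSL1 to JUN at -1.61 (share 0.828). SFN replicate 5 was far above the other SFN libraries for FOSL1 at 269 CPM (share 0.872), for FOSL2 at 131 CPM (share 0.739) and for the log2 ratio of FOSL1 to FOSL2 at 1.03 (share 0.764). SFN replicate 2 was the high library for JUNB at 4.83 CPM (share 0.747), and SFN replicate 3 the low library for BATF3 at 6.33 CPM (share 0.860).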

How the results depend on the processing

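FOS kept its direction and call under all 19 alternatives, with log2 fold changes of 2.14 to 2.34 and adjusted p-values of 6.9e-10 to 0.0019, and so did JDP2, with 1.17 to 1.36 and 1.6e-14 to 0.0012. Of 170 alternative values of the members, 161 kept direction and call, 6 passed the threshold anew and 3 turned in sign. The latter were BATF3 at 0.075 with limma-voom on quantile normalized values, 0.038 with sample quality weights and 0.029 without DMSO replicate 1. JUN was called lower in 3 of 19 alternatives, with log2 fold changes from -0.34 to -0.21. The number of members called higher was 4 with quality weights, where FOSL1 and FOSL2 were added, and 2 when any 1 replicate was left out. The number called lower was 1 with quantile normalized limma-voom, 1 with quality weights and 0 to 1 when replicates were left out, with 1 without DMSO replicate 1 and without DMSO replicate 4. FOSB had too few counts for the filter at a mean of 1 CPM and gave no value there. The cause of these changes was not tested.

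The log2 ratio of JUN to JUND turned to -0.090 without DMSO replicate 1, and ranged from -0.090 to 0.28 when replicates were left out. Replicates share numbers across groups, and the deviations of same-numbered libraries correlated at -0.27 to 0.48. For DMSO replicates 1 to 4, an SFN library of another number correlated more highly, at 0.36 to 0.50. For replicate 5 the same number gave 0.48, against at most 0.01 for another number. The numbers were not taken to pair the libraries, but pairing was not excluded. With a replicate block, the ratios of FOS to FOSB, FOS to JUN and FOSL1 to JUN kept their differences of 2.69, 2.44 and 0.74 with an adjusted p of 0.125, in a test that 5 pairs cannot bring under 0.05, and edgeR's block called 911 genes higher and 1530 lower, FOS and JDP2 among the former. The block left 0 genes called of the kinase modules and 0 of the turnover list, and MEF2D also lost its call.

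Over all genes, the count called higher was 1214 and lower 1862. It was 1840 higher with DESeq2, 3874 and 4041 with quality weights, 393 and 770 with an absolute log2 fold change above 1, 819 and 2163 with library size alone, and 3058 and 3193 without DMSO replicate 1. Of 320 alternative counts for the gene lists, 247 were within 1.5 times the main count. FOS and FOSB had at most 36 counts in a library, and the smallest difference detectable at such counts was not tested.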
